A study of Mus musculus with 4 samples.

Results

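The genes described here are 10 members of the Notch pathway, namely the receptors Notch1, Notch2 and Notch3, the ligands Dll1, Dll4, Jag1 and Jag2, and the transcriptional repressors Hes1, Hey1 and Heyl. They were taken by gene symbol from a table of 25239 genes, and all 10 were found. RNA had been sequenced from mouse hindlimb bud cells (FVB strain, genotype given as wild-type) at embryonic day 11.5. Every embryo carried the reporter H11^hsp68-hZRS(404G>A)-mCherry, in which mCherry, a red fluorescent protein, is placed at the H11 locus under the hsp68 promoter and the human ZRS carrying the 404G>A change. The ZRS is the distant limb enhancer of Shh. The groups were mCherry-positive cells of the anterior domain and mCherry-negative cells of the central domain, at 2 libraries per group. Domain and reporter state changed together, so they cannot be told apart, and "anterior" and "central" below stand for both. The central gate was defined by the absence of the reporter, so it could hold any cell type of the dissected domain. Whether embryos were pooled, and whether same-numbered libraries shared embryos, is not given in the sources used here.

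Notch signalling passes between touching cells. A Delta or Jagged ligand on one cell engages a Notch receptor on its neighbour, the receptor is cut by an ADAM protease and then by gamma-secretase, and the freed intracellular domain joins the DNA-binding protein RBPJ and a Mastermind coactivator in the nucleus. Genes of the Hes and Hey families, which encode basic helix-loop-helix repressors, are the best known targets. In the limb bud the pathway is known from the apical ectodermal ridge, the muscle precursors, the blood vessels, the condensing cartilage and the distal mesenchyme.

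Of the receptors, Notch1 differed most between the populations and Notch3 least, and the sequence just upstream of the RefSeq start of each is shown for that reason. Both are read 5′ to 3′ along the gene from RefSeq on GRCm38.p6, minus strand, Notch1 from chr2:26503825-26504072 and Notch3 from chr17:32166891-32167140. The Notch1 window ends 2 bases before the start of the RefSeq gene model, and GENCODE M21 also lists a transcript that begins farther upstream, at position 26516663. For Notch3, GENCODE M21 begins the gene downstream of the RefSeq start, at position 32166852. Capitals mark the GC box GGGCGG on either strand.
Notch1: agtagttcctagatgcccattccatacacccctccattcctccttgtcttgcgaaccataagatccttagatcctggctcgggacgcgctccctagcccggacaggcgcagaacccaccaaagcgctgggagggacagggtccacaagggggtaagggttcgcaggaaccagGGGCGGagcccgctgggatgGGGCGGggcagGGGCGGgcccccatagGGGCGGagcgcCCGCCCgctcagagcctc
Notch3: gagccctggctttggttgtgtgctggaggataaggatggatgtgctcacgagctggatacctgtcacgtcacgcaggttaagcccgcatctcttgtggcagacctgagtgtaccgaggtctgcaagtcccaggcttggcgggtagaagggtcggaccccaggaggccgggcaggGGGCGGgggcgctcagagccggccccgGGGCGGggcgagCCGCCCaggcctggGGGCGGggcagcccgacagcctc
The 250 bases before the RefSeq start held the GC box 5 times for Notch1 and 4 times for Notch3, and 32.7% of the 32851 RefSeq promoter windows of that length held it at least once. Neither window held the RBPJ core TGGGAA (21.6% of all windows, both strands) or an E-box CANNTG (66.2% of all windows). These are matches of letters in a short window and show no binding. Of the 10 genes, 7 had an entry in the RefSeq promoter table. Hes1, Hey1 and Heyl had none.

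Library totals lay between 30080925 and 33257383 counts, and 14610 genes passed the filter on low counts. The hindlimb mesenchyme list (Prrx1, Prrx2, Twist1, Pdgfra, Pitx1, Tbx4) summed to between 2231 and 2430 CPM (counts per M of a library's total, scaled by TMM) in every library, and its 6 genes were all detected. Within it Prrx2 was 3.75-fold higher and Twist1 1.77-fold higher in anterior cells, Pdgfra was 2.26-fold lower, and the other 3 genes were not called. Several marker lists of other cell types differed in sum between the groups. Myogenic markers summed to 4.17 and 2.35 CPM in anterior cells, against 143 and 142 CPM in central cells, and 7 of 7 fell in anterior cells, with Pax7 and Myog at 0 counts there. Ectoderm markers summed to 10.3 and 10.2 CPM against 58.8 and 195 CPM, and 9 of 10 fell. Endothelial markers summed to 13.6 and 20.3 CPM against 39.5 and 49.7 CPM, and 6 of 10 fell. Mural markers summed to 193 and 225 CPM against 216 and 233 CPM, with 4 of 6 tested genes lower and Kcnj8 at 0 counts in all libraries. Most of this sum was Pdgfrb, at 175 and 210 CPM against 151 and 186 CPM, which was not called. Chondrogenic markers summed to 357 and 265 CPM against 1338 and 1062 CPM, with 3 of 5 tested genes lower and Matn1 at 0 counts in anterior cells. Schwann and neural crest markers summed to 6.42 and 5.66 CPM against 25.6 and 19.96 CPM, with 2 of 3 tested genes lower and Sox10 and Foxd3 at 0 counts in anterior cells. Erythroid markers went the other way, at 3294 and 8400 CPM against 5.97 and 9.48 CPM, with 8 of 8 tested genes higher and Hba-a1 and Hba-a2 at 0 counts in all libraries. Macrophage markers summed to 16.4 and 12.3 CPM against 6.17 and 5.41 CPM, with 3 of 6 higher. In bulk libraries such as these, fewer cells of a type and less RNA per cell cannot be told apart.

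**Figure D1:**
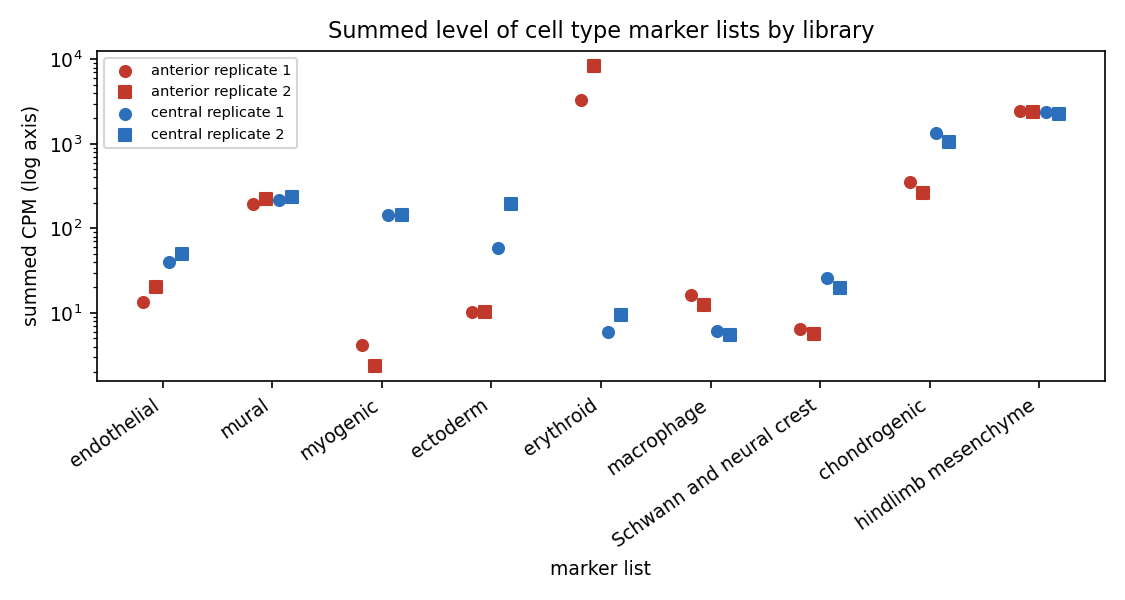
Summed TMM-scaled CPM of each cell type marker list (log axis) in each library, with anterior libraries in red and central libraries in blue, circles for replicate 1 and squares for replicate 2. The myogenic list lies at 4.17 and 2.35 CPM in anterior and at 143 and 142 CPM in central cells, the ectoderm list differs between the central replicates (58.8 and 195 CPM), and the hindlimb mesenchyme list sums to between 2231 and 2430 CPM, with 2 of its 6 genes called higher and 1 called lower.

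Across the members, 7 of 10 differed between anterior and central cells at an adjusted p-value under 0.05 (edgeR quasi-likelihood test, Benjamini-Hochberg over all tested genes). Jag1 and Hey1 rose, whereas Notch1, Notch2, Dll1, Jag2 and Heyl fell in anterior cells. Dll4, Notch3 and Hes1 were not called. Of all tested genes 22.9% were called, 10.7% as higher and 12.3% as lower. The median log2 fold change (anterior over central) of the members was -0.87, beside -0.01 over all tested genes. Dll1 and Heyl passed the filter only through their central counts. The filter thus favoured a fall in anterior cells, and their calls add no support. Without them the median was -0.15, and 5 of the other 8 members were called. The groups did not overlap for 8 of the 10 members, and for 63.5% of all tested genes.

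**Figure D2:**
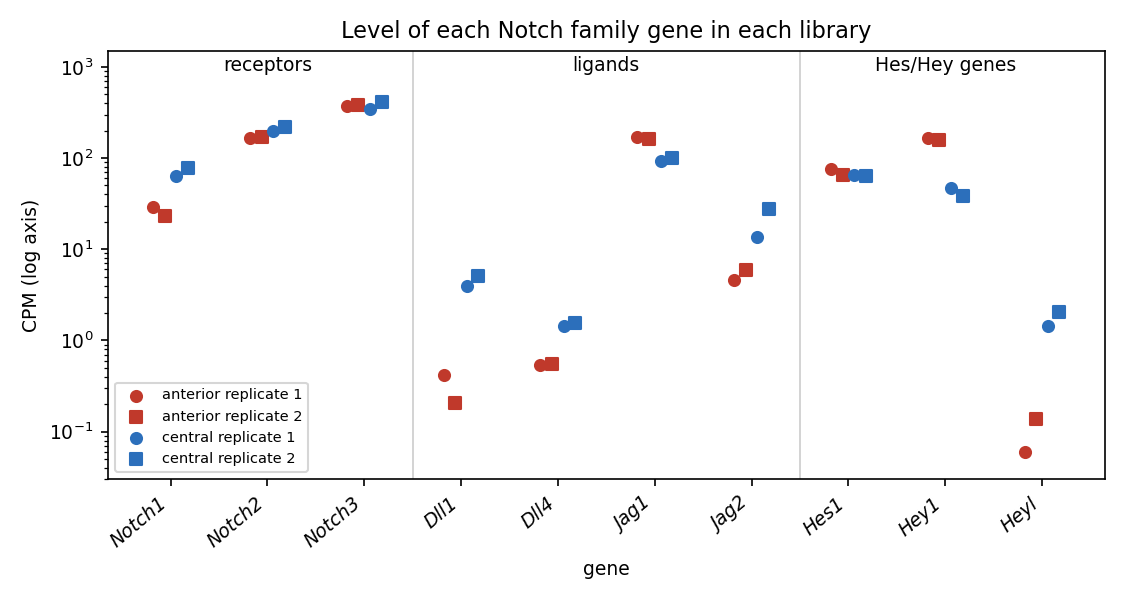
TMM-scaled CPM (log axis) of each of the 10 genes in each library, anterior in red and central in blue, circles for replicate 1 and squares for replicate 2. Hey1 and Jag1 lie higher in both anterior libraries, Notch3 and Hes1 overlap between the populations, and Dll1 and Heyl lie under 1 CPM in both anterior libraries.

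Among the receptors, the difference was largest for Notch1, the receptor used in the limb ectoderm and endothelium and at many other sites. Notch1 (chr2:26457903-26516663, GRCm38, minus strand) measured 29.0 and 23.2 CPM in anterior cells, against 64.1 and 76.9 CPM in central cells. Both anterior values lay under both central ones, with a log2 fold change of -1.43 ± 0.13 (SE), or 2.697-fold lower, and an edgeR adjusted p-value of 0.000116. Its exons share 7.5% of their length with 0610009E02Rik, and whether the counting used strand is not given in the sources used here, so a small part of its count is uncertain. Endothelial and ectoderm markers were lower in the same libraries by the sums given above, and their part in the Notch1 difference was not tested.

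Notch2, a close relative of Notch1 (chr3:98013527-98150361, plus strand), measured 167 and 170 CPM in anterior cells and 196 and 221 CPM in central cells. The fall was small, at -0.31 ± 0.07 (SE) on the log2 scale, or 1.24-fold (edgeR adjusted p-value 0.0179). It was no longer called without anterior replicate 1 (log2 fold change -0.29, adjusted p-value 0.109) or without anterior replicate 2 (-0.32, adjusted p-value 0.0903). Notch3, the receptor best known from mural cells of vessels (chr17:32120820-32166852, minus strand), measured 371 and 381 CPM in anterior and 345 and 409 CPM in central cells. The anterior values lay between the central ones. The 95% interval of its log2 fold change ran from -0.19 to 0.19 (adjusted p-value 0.982). Of the 6 tested mural markers, 4 were lower in anterior cells (Acta2, Mcam, Des and Cspg4), Pdgfrb and Rgs5 were not called, and Kcnj8 was at 0 in all libraries. Their part in the Notch3 values was not tested.

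Of the ligands, Jag1 rose in anterior cells, whereas Jag2 and Dll1 fell. Jag1, the Jagged ligand of the distal limb mesenchyme (chr2:137081456-137116644, minus strand), measured 171 and 162 CPM in anterior cells and 93.7 and 100.4 CPM in central cells. Its groups were well apart, and it rose by 0.78 ± 0.07 (SE) on the log2 scale, or 1.71-fold (edgeR adjusted p-value 0.000114). Jag2, the Jagged ligand of the apical ectodermal ridge (chr12:112907819-112929776, minus strand), measured 4.59 and 5.93 CPM against 13.5 and 27.5 CPM. It was lower in both anterior libraries, with a log2 fold change of -1.96 ± 0.31 (SE), or 3.90-fold, and an edgeR adjusted p-value of 0.00273. The central replicates themselves differed, by 2.04 times for Jag2 and by 3.31 times in the same direction for the summed ectoderm markers. Without central replicate 2 the log2 fold change of Jag2 was -1.36 (adjusted p-value 0.00033). The part of ectoderm in the Jag2 difference was not tested.

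Dll1, a Delta ligand that keeps muscle precursors from differentiating (chr17:15367354-15376872, minus strand), was counted 14 and 6 times in anterior cells, and 122 and 163 times in central cells. In CPM these were 0.42 and 0.20 against 3.96 and 5.04. The 2 groups were far apart, with a log2 fold change of -3.81 ± 0.44 (SE), or 14.1-fold, and an edgeR adjusted p-value of 0.000487. Dll1 passed the filter only through its central counts, so this p-value adds no support for the fall. The log2 fold change was -4.43 without anterior replicate 1 and -3.40 without anterior replicate 2. The myogenic markers fell by 43.7 times in summed CPM, and their part in the Dll1 difference was not tested. Dll4, the Delta ligand of arterial and sprouting endothelium (chr2:119325784-119335962, plus strand), had 18 and 16 counts against 44 and 50, or 0.54 and 0.55 CPM against 1.43 and 1.54 CPM. Its values did not overlap between populations, but it was not called (log2 fold change -1.45, 95% interval -2.53 to -0.37, edgeR adjusted p-value 0.0592). With counts halved it passed, at an adjusted p-value of 0.0427, and the alternatives that kept all libraries gave 0.0427 to 0.122. Of the 10 endothelial markers 6 were lower in anterior cells, among them Kdr at 8.29-fold and Pecam1 at 4.51-fold, while Egfl7, Esam, Tek and Emcn were not called. Their part in the Dll4 values was not tested. Of the Dll4 exons, 5.56% of the length is shared with Gm14207.

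Among the repressors, Hey1 showed the largest rise of the 10 members. Hey1 is a Notch target with a known part in vessels, heart and bone (chr3:8663359-8667256, minus strand). It measured 165 and 157 CPM in anterior cells, against 46.6 and 38.5 CPM in central cells. The replicates lay close together and the groups far apart, with a log2 fold change of 1.92 ± 0.10 (SE), or 3.78-fold, and an edgeR adjusted p-value of 5.23e-06. Hes1, a target that also responds to other signals and oscillates in many progenitors (chr16:30064384-30067796, plus strand), measured 75.5 and 65.0 CPM against 65.1 and 63.1 CPM. Its groups overlapped, and the 95% interval of the log2 fold change ran from -0.08 to 0.34 (adjusted p-value 0.345).

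Heyl, a target known from muscle and mural cells (chr4:123233556-123249875, plus strand), was counted 2 and 4 times in anterior cells, and 44 and 66 times in central cells. In CPM these were 0.06 and 0.14 against 1.43 and 2.04, so Heyl was near the floor of 3 counts (0.0899 to 0.102 CPM) in anterior cells. The fitted log2 fold change was -4.12 ± 0.66 (SE, edgeR adjusted p-value 0.00272). It was -4.76 without anterior replicate 2 and -3.63 without anterior replicate 1. Heyl passed the filter only through its central counts, so this p-value adds no support for the fall. Summed over libraries and with counts halved, Heyl was 18.2-fold lower in anterior cells, with an exact counting interval of 5.91 to 90.9. That interval covers counting error only and leaves out the spread between libraries. Myogenic markers were lower in the same libraries, and their part in the Heyl difference was not tested.

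**Figure D3:**
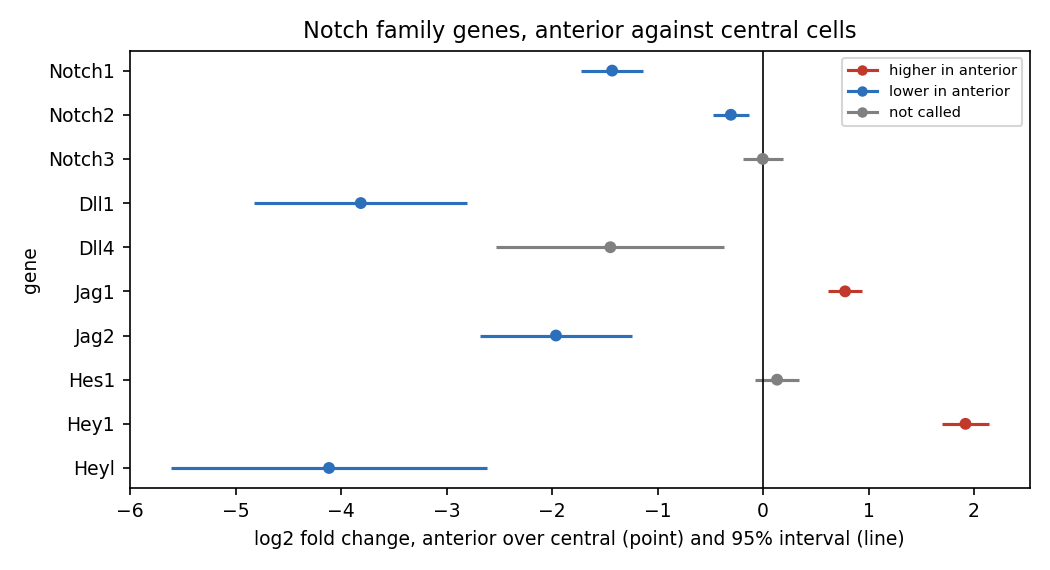
Log2 fold change of each member, anterior over central (points), with its 95% interval from the edgeR fit (lines), in red where higher, blue where lower and grey where not called. Hey1 (1.92) and Jag1 (0.78) lie to the right of 0, Notch3 (-0.0033) and Hes1 (0.13) span it, and Heyl (-4.12) and Dll1 (-3.81) lie farthest to the left.

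Levels were compared between genes after division by the length of each gene's merged exons (CPM per kb, GENCODE M21). In anterior cells Hey1 stood first at 49.2 CPM per kb, followed by Notch3 at 46.5, Hes1 at 34.5, Jag1 at 28.6 and Notch2 at 15.6 CPM per kb. The remaining members were much lower, from Notch1 at 1.83 CPM per kb through Jag2 at 0.76, Dll4 at 0.14 and Dll1 at 0.07 to Heyl at 0.02. In central cells the order began with Notch3 at 46.6, then Hes1 at 31.5, Notch2 at 19.3, Jag1 at 16.7 and Hey1 at 13.0 CPM per kb. Notch1 at 4.95, Jag2 at 2.94, Dll1 at 1.07, Dll4 at 0.39 and Heyl at 0.34 CPM per kb came after them. Neighbours in each order had no overlap between their libraries, except Dll4 and Heyl in central cells. The orders also rest on the merged exon lengths, and other lengths were not tried.

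The make-up of each class followed from these levels. Jag1 made up 97.0% and 96.4% of the summed CPM per kb of the 4 ligands in anterior cells, and 83.2% and 75.7% in central cells. Jag2 held 2.18% and 2.96% in anterior cells against 10.01% and 17.3% in central cells, and Dll1 held 0.33% and 0.17% against 4.86% and 5.24%. Among the receptors Notch3 held 72.4% and 73.0% of the receptor level in anterior cells and 65.3% and 66.2% in central cells. Notch1 held 3.22% and 2.52% against 6.90% and 7.07%. Among the member repressors (Hes1, Hey1 and Heyl) the leading gene differed. Hey1 held 57.6% and 60.1% of the summed level in anterior cells, whereas Hes1 held 68.7% and 71.8% in central cells. Hes6 is not a member and is left out of these shares. It measured 18.6 CPM per kb in anterior and 32.7 CPM per kb in central cells, the latter above Hes1 at 31.5. These shares are a description and were not tested.

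**Figure D4:**
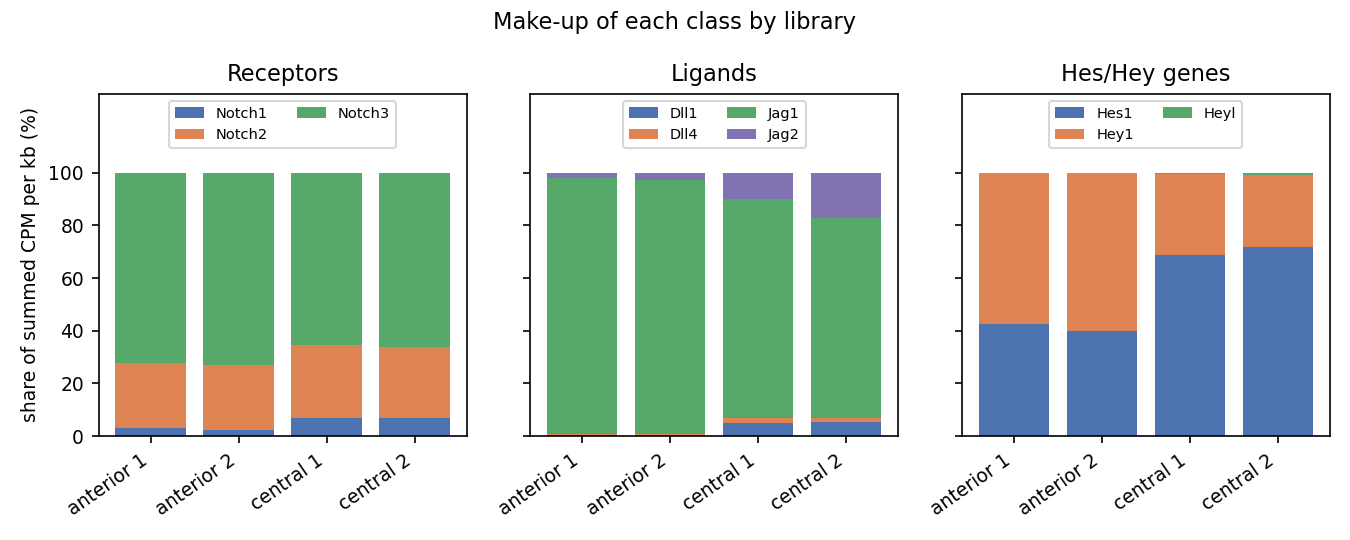
Share of the summed CPM per kb (%) held by each gene within the receptors, the ligands and the Hes/Hey genes among the members, 1 bar per library. Jag1 fills 97.0% and 96.4% of the anterior ligand bars and 83.2% and 75.7% of the central ones, and the larger part of the Hes/Hey bar is Hey1 in anterior and Hes1 in central libraries.

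Other genes of the pathway were taken from a list of 41, of which 39 were tested. Here 10 of 39 were called (25.6%, beside 22.9% of all tested genes), 1 as higher and 9 as lower in anterior cells, with a median log2 fold change of -0.10. The share is near that of all genes. Mfng passed the filter only through its central counts, which favoured a fall in anterior cells, so its call adds no support. Of the other 38, 9 were called. None of the 8 listed genes for receptor cleavage was called by edgeR (among them the protease genes Adam10 and Adam17), with log2 fold changes from -0.39 to 0.30. Psenen was the 1 with an unadjusted p-value under 0.05, and limma-voom and the DESeq2 Wald test called 0 of the 8. Rbpj, the DNA-binding partner of the receptor, measured 54.6 and 52.7 CPM in anterior cells and 58.7 and 56.9 CPM in central cells (log2 fold change -0.11, 95% interval -0.29 to 0.07, edgeR adjusted p-value 0.380). Notch4, the endothelial receptor, measured 5.61 and 5.79 CPM against 5.84 and 6.58 CPM (adjusted p-value 0.729), and Hey2 measured 1.499 and 1.77 CPM against 1.75 and 2.04 CPM (adjusted p-value 0.735).

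Of the genes called lower, Dlk1 fell furthest. Dlk1, an imprinted gene for a membrane protein resembling Delta, measured 42.8 and 21.03 CPM in anterior cells and 244 and 268 CPM in central cells, and the log2 fold change was -3.00 ± 0.25 (SE; edgeR adjusted p-value 7.68e-05). Without anterior replicate 1 its log2 fold change was -3.60, and without anterior replicate 2 it was -2.57. Maml2, one of the Mastermind coactivators, measured 7.86 and 5.22 CPM against 26.4 and 21.3 CPM (log2 fold change -1.86, adjusted p-value 0.000401), while Maml1 measured 134 and 138 CPM against 121 and 129 CPM, which did not pass the test (adjusted p-value 0.252). Lfng, a glycosyltransferase that modifies the receptors, measured 1.62 and 2.08 CPM against 5.94 and 5.53 CPM (log2 fold change -1.63, adjusted p-value 0.00401). Dtx4, a Deltex ubiquitin ligase, measured 5.01 and 5.83 CPM against 14.2 and 16.2 CPM (log2 fold change -1.49, adjusted p-value 0.000587). Hes6, which counteracts Hes1, measured 33.6 and 33.8 CPM against 57.9 and 60.4 CPM (log2 fold change -0.81, adjusted p-value 0.000233).

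The other calls were weaker or rested on few counts. Dll3, a ligand relative that acts inside the cell, fell by 2.42 on the log2 scale (adjusted p-value 0.000871) and Dtx1 fell by 2.25 (adjusted p-value 0.00381). Mfng fell by 2.58 from 22 and 39 counts to 8 and 2 (adjusted p-value 0.0367), and its call was lost with the DESeq2 Wald test (0.0524), without anterior replicate 2 (0.207) and without central replicate 2 (0.202). Its log2 fold change was -3.74 when anterior replicate 1 was left out, and -1.98 when anterior replicate 2 was left out. As stated above, Mfng passed the filter only through its central counts, so its p-value adds no support. Dll3, Dtx1 and Mfng were named after their values were seen. Neurl1a, a ubiquitin ligase for the ligands, measured 15.1 and 14.7 CPM against 19.2 and 20.02 CPM (log2 fold change -0.40, adjusted p-value 0.0489). It was not called with DESeq2 size factors (0.05005), with the DESeq2 Wald test (0.0883), without a filter (0.0544), or when any 1 of the 4 libraries was left out (0.0883 to 0.196). Itch, a ubiquitin ligase that acts on the receptors, was the gene called higher, at 155 and 162 CPM against 124 and 140 CPM (log2 fold change 0.26, adjusted p-value 0.0405). Its call was lost with library size alone (0.0612), with upper-quartile factors (0.0619), and without anterior replicate 1 (0.100), anterior replicate 2 (0.222) or central replicate 1 (0.0882).

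**Figure D5:**
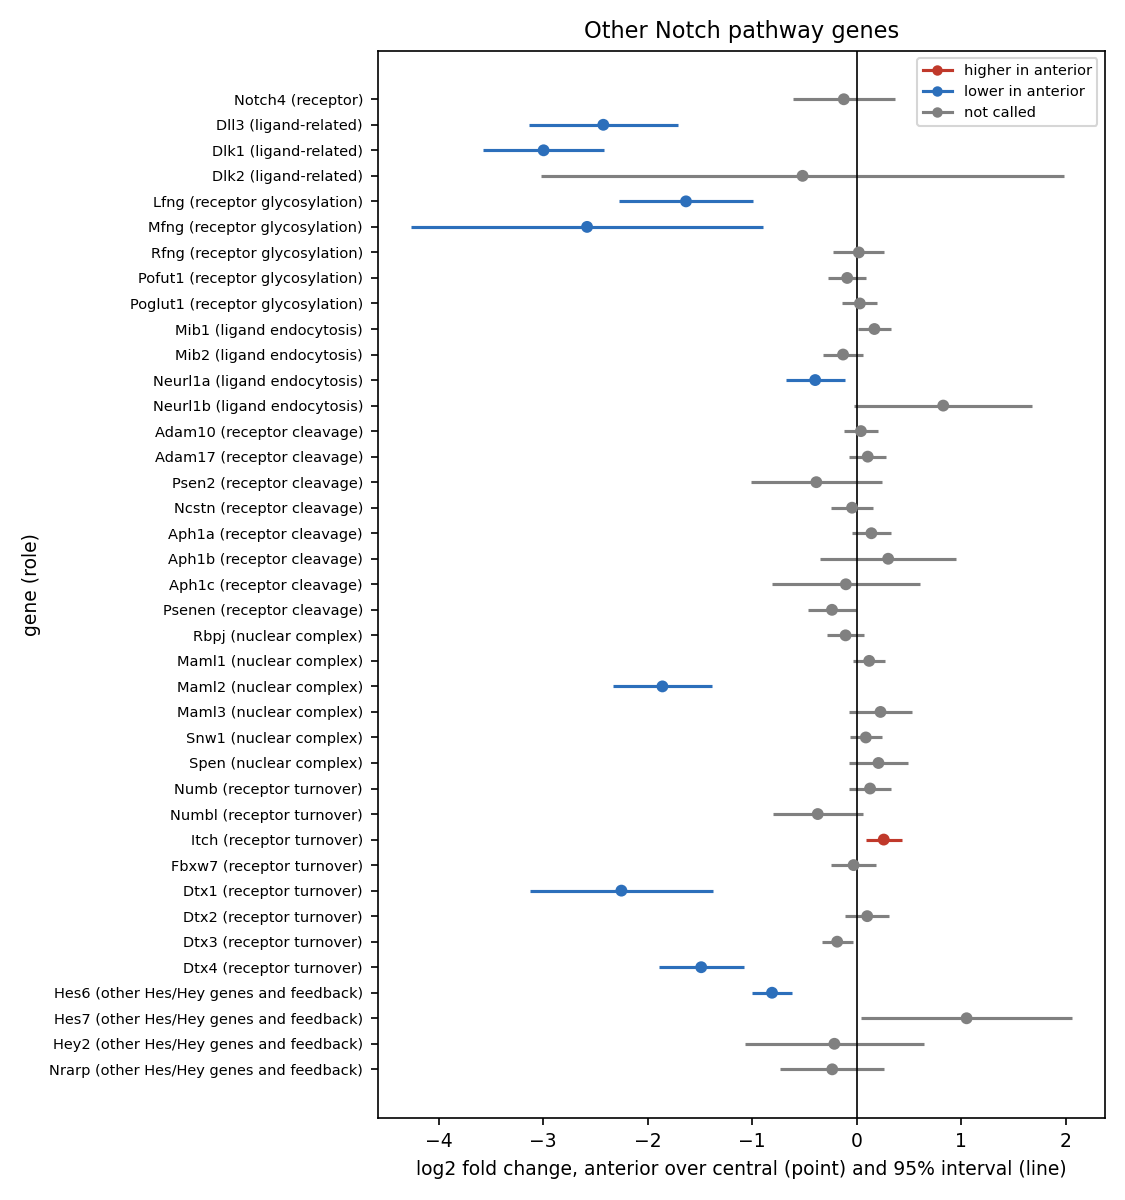
Log2 fold change, anterior over central (points), with 95% intervals (lines) for the 39 tested genes of the wider pathway list, in red where higher, blue where lower and grey where not called. The genes for receptor cleavage lie between -0.39 and 0.30, and Dlk1 lies farthest to the left at -3.00.

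The genes whose pattern lay nearest to that of Hey1, the called member with the largest rise, were Mtss1, Prrx2 and Pmaip1. Likeness was the Euclidean distance of log2 CPM centred on each gene's mean over the 4 libraries, and was 0.09, 0.13 and 0.14. Mtss1 measured 171 and 172 CPM in anterior and 50.7 and 43.6 CPM in central cells, and Prrx2 measured 296 and 319 against 91.8 and 72.3 CPM. For Heyl, the called member with the largest fall, the nearest were Fgf18, Itga4 and Rspo2, at larger distances of 0.57, 0.59 and 0.60. Over 4 libraries in 2 groups such a distance reflects little more than the size of the difference between the groups.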

How the data were processed

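The authors deposited 1 table of raw read counts per gene symbol, 1 column per library, not normalized, per the file headers. The submitters' processing notes name STAR 2.7.9a, HTSeq, DESeq2 3.16 and mm10, with no roles; strandedness and annotation are not given in the sources used here. Of counts between 1 and 10, 72.8% to 75.6% were even, as when both mates of a pair are counted, so halved counts were tried. No molecular identifiers are described, and intervals for ratios of counts cover counting error only.

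Groups and replicate numbers came from the sample titles. The whole table was fitted with edgeR 4.0.16 in R 4.3.3 (filterByExpr default, TMM, quasi-likelihood F test, Benjamini-Hochberg adjustment, threshold 0.05, 2 residual degrees of freedom). SE is the absolute log2 fold change over the square root of F. The script was tested on simulated counts. With no statement that the libraries came from separate cultures or animals, p-values measure the spread between these libraries, which may be technical.

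Alternatives were DESeq2 1.42.0 size factors and Wald test, library size alone, upper-quartile factors, limma-voom (limma 3.58.1), other filters, a replicate block, halved counts, removal of erythroid genes and the ribosomal RNA precursor Rn45s, and leaving out each library. Exon lengths and gene coordinates are from GENCODE M21 (GRCm38, the build that mm10 names). The members, gene lists and tests were chosen with earlier results of these data known. Named were all members, the called pathway genes with a mean of at least 5 CPM, and Notch4, Rbpj, Lfng and Hey2. Maml1, Adam10, Adam17 and Psenen, which were not called, were named outside this rule. For the members with the largest called rise and fall, the 3 nearest genes of at least 5 CPM, by log2 CPM with a prior count of 2, were named too. A result that would have been listed is not reported here.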

Additional observations from a re-analysis of the deposited data

How the results depend on the processing

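The count of members called was 7 and stayed between 6 and 8 over all alternatives, and that of the wider pathway list was 10 and stayed between 7 and 11. Over all genes, 3351 were called, and leaving out 1 library gave 2009 (without anterior replicate 2) to 3697. In those fits the lone library of a group is assumed to vary like the other group. Notch1, Jag1, Jag2 and Hey1 kept their direction and call under every alternative. Dll1 and Heyl did so wherever they were tested, but they passed the filter only through their central counts, so this adds no support. Heyl and Dll4 have no value with a mean count of at least 50. The log2 fold change of Notch3, near 0, changed sign to 0.0010 (limma-voom), 0.0025 (no filter) and 0.0018 (replicate block), and ranged from -0.12 to 0.13 when 1 library was left out. The cause was not tested. Itch was not called under 2 scalings. Of the scalings, upper-quartile factors moved the median log2 fold change of all genes the most, by -0.0374.

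With the replicate number as a block, 3586 genes, 7 members and 10 other pathway genes were called, and it changed no call of a member. The titles give the shared numbers and do not say what they stand for. Differences between replicates 1 and 2 correlated at 0.0463 across genes between the populations. With 1 such difference per population, this cannot tell whether same-numbered libraries shared embryos. With 2 libraries per group and few counts, the folds of Dll1, Dll4, Heyl and Mfng have wide intervals.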
